A study of Mus musculus with 4 samples.

Results

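The immediate-early genes described here are 10 genes of a class whose transcription starts within minutes of a stimulus, without new protein synthesis. Among them Jund has high resting transcription in many tissues. The 10 genes were chosen by name, as 10 of the 32285 genes of the count matrices: Fos, Fosb, Jun, Junb, Jund, Egr1, Egr2, Ier2, Ier3 and Klf4. All 10 had UMIs (counted molecules) in each of the 4 libraries. Fos and Jun proteins pair through leucine zippers to form the transcription factor AP-1, Egr1, Egr2 and Klf4 are zinc-finger transcription factors, and Ier2 and Ier3 are small proteins induced by the same signals. Growth factors, mechanical load and stress switch genes of this class on, largely through ERK and p38 kinases acting on serum response factor and CREB. Enzymatic dissociation of tissue at body temperature is also known to induce them, so a level in dissociated cells can hold what the cells had in the embryo and what they acquired during digestion.

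The study used single-cell RNA sequencing of mouse embryonic knee to ask how the glucose transporters Glut1 (Slc2a1) and Glut3 (Slc2a3) bear on the interzone, the band of cells from which synovial joints form. Presumptive knee joint regions of the hindlimb were digested in collagenase D, and each sample gave 1 library made with 10x 3' v3.1 chemistry. An E13.5 control and an E14.5 control, both labelled No cre, stood beside an E14.5 library of genotype Prx1cre;Glut1f/f;Glut3f/+, titled G1KO, and an E14.5 library of genotype Prx1cre;Glut1f/f;Glut3f/f, called DCKO in the study. Prx1Cre acts in limb mesenchyme, so muscle, endothelial and blood cells are not its target. Both controls were titled WT. The floxed alleles of the control embryos, if any, and the number of embryos pooled per library were not stated, and no treatment was applied. Every condition had 1 library, so there were no replicates, no test was made between conditions, and each interval below covers counting error only.

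The deposited matrices held 100344565, 84188147, 97110697 and 91574038 UMIs in 12769, 9707, 11690 and 11602 barcodes, in the order E13.5 control, E14.5 control, the library labelled G1KO and the library labelled DCKO. The same order is kept wherever 4 values follow each other. A barcode was kept where it had between 200 and 6000 genes with UMIs and a mitochondrial share of no more than 10%, which left 12446, 9305, 11264 and 11305 cells, with median depths of 6176.5, 7279, 6757 and 6379 UMIs and median mitochondrial shares of 2.82, 2.40, 2.83 and 2.31%. The 10 members together took 0.438, 0.533, 0.535 and 0.518% of the UMIs of kept cells. Pairs of libraries shared 25 to 40 barcodes, at most 0.381% of a library.

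The libraries stood apart in sex composition and in the deleted genes. Xist, transcribed from the inactive X chromosome, was detected in 64.7, 0.172, 92.2 and 91.2% of kept cells and Y-linked genes in 18.4, 65.9, 0.0355 and 0.0265%. The E13.5 control held cells of both kinds, the E14.5 control had next to no Xist and Y-linked UMIs in most cells, and both mutant libraries had next to no Y-linked UMIs and Xist in most cells, so sex and genotype cannot be told apart at E14.5. Slc2a1 stood at 50.2, 67.3, 362 and 437 CPM (a gene's UMIs scaled by the total of the same cells) in the gated mesenchyme, with 95% intervals of 48.7 to 51.8, 65.5 to 69.2, 358 to 366 and 433 to 442. Both libraries labelled with the deletion were thus higher than both controls, against what their labels say of the gene. Slc2a3 stood at 5.30, 3.46, 4.36 and 2.50 CPM (428, 257, 372 and 214 UMIs). Reads of 3' chemistry come from the end of a transcript, and a tag outside the deleted part checks nothing of the deletion, so both libraries are called by their labels, and G1KO and DCKO below stand for the libraries so labelled. Each mutant comparison rests on 1 such library and has no value without it.

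Cells were assigned to gates by detected markers. The Gdf5-positive gate needed a Gdf5 UMI and at least 3 of 6 interzone markers, the chondrocyte gate at least 3 of 8 cartilage markers holding at least 0.5% of a cell's UMIs, and the prehypertrophic gate added at least 3 of Ihh, Col10a1, Pth1r and Panx3. Interzone markers were Gdf5, Osr2, Sfrp2, Creb5, Tgfbi and Erg, and cartilage markers Col2a1, Acan, Matn1, Matn3, Col9a1, Col9a3, Hapln1 and Cnmd. The other gates needed at least 3 markers of their list, fibroblasts also a Dcn UMI and erythroid cells also 50 globin UMIs. The lists were Dcn, Lum, Col3a1, Col1a1, Col1a2 and Dpt for fibroblasts, Runx2, Sp7, Alpl, Ibsp, Bglap and Spp1 for osteogenic cells and Scx, Tnmd, Mkx, Kera and Fmod for tendon. Of those outside mesenchyme, the lists were Myod1, Myog, Myf5, Pax7, Des, Actc1, Tnnt1 and Mymk for muscle, Pecam1, Cdh5, Kdr, Emcn, Egfl7 and Esam for endothelium and C1qa, C1qb, C1qc, Csf1r, Fcer1g, Tyrobp and Lyz2 for macrophages. A cell that passed 1 gate outside mesenchyme went there, and 1 that passed several was left out. Among the rest the order was prehypertrophic, Gdf5-positive, tendon, osteogenic, fibroblast and chondrocyte. The first 3 gates held 2203, 1136, 1240 and 574 Gdf5-positive cells, 1463, 4539, 4566 and 6168 chondrocytes and 426, 159, 282 and 359 prehypertrophic cells. Median depths were 6185, 6479.5, 6263.5 and 7024.5 UMIs, 6677, 7966, 7812 and 7278.5 UMIs and 11692.5, 18859, 19548 and 16268 UMIs. Prehypertrophic cells were the deepest, and deeper at E14.5 than at E13.5. The share of Gdf5-positive cells that passed on exactly 1 Gdf5 UMI was 36.6, 51.7, 54.4 and 69.7%, and the share with exactly 3 markers was 14.1, 16.7, 20.2 and 36.4%. Of the chondrocytes, 66.1, 19.0, 27.5 and 33.0% held under 1% of their UMIs in the cartilage markers. Doublets were kept.

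All 6 interzone markers had UMIs in the Gdf5-positive gate of every library and summed to 3109, 2883, 2315 and 1413 CPM, with Sfrp2 the most abundant, at 1651, 1639, 1252 and 736 CPM. The 8 cartilage markers summed to 2178, 5002, 5765 and 6519 CPM there, with Col2a1 the most abundant, at 1022, 2056, 2628 and 2757 CPM, and the 6 fibroblast markers to 1089, 2435, 2069.6 and 1983 CPM, with Col3a1 the most abundant. Interzone markers were thus lowest and cartilage markers highest in the Gdf5-positive cells of the library labelled DCKO, and the part of this mixture in the member values below was not tested. In the chondrocyte gate the 8 cartilage markers summed to 9341, 16034, 14253 and 13029 CPM, lowest in the E13.5 control. All 4 hypertrophy markers had UMIs in the prehypertrophic gate of every library and summed to 1387, 752, 1086 and 867 CPM. Ihh was at 579, 237, 248 and 218 CPM there, and Col10a1, the collagen of hypertrophic cartilage, at 32.0, 9.36, 187 and 104 CPM.

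The members are spread over 7 chromosomes of GRCm38 in the GENCODE M21 annotation. Among the AP-1 genes, Fos (ENSMUSG00000021250) lies at chr12:85473890-85477273, Fosb (ENSMUSG00000003545) at chr7:19302696-19310051, Jun (ENSMUSG00000052684) at chr4:95049034-95052222, Junb (ENSMUSG00000052837) at chr8:84974484-84978718 and Jund (ENSMUSG00000071076) at chr8:70698949-70700616. The zinc-finger genes are Egr1 (ENSMUSG00000038418) at chr18:34859823-34864984, Egr2 (ENSMUSG00000037868) at chr10:67535475-67542188 and Klf4 (ENSMUSG00000003032) at chr4:55527143-55532466. Ier2 (ENSMUSG00000053560) lies at chr8:84661331-84662852 and Ier3 (ENSMUSG00000003541) at chr17:35821684-35822923. Jun, Junb and Jund each overlap a gene on the opposite strand, Junos, Prdx2 and Gm11175 in that order. The deposited notes do not state whether counting used the strand, so the counts of these members are uncertain to that extent.

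Summed over the 10 members, the Gdf5-positive gate held the highest level of all gates of at least 50 cells in each library, at 5962, 6914, 7114 and 6360.5 CPM (every interval of a sum in the 3 gates above within 1.45% of its value). The osteogenic gate of the library labelled DCKO came within counting error of it, at 6215 CPM (95% interval 6004 to 6431.5). Chondrocytes stood at 3512, 5133, 5202 and 5115 CPM and prehypertrophic cells at 3318, 6114, 3565 and 3247 CPM. Chondrocytes were lowest in the E13.5 control and close to each other at E14.5, whereas the prehypertrophic gate was high in the E14.5 control alone. Of the other mesenchymal gates, Dcn-positive fibroblasts stood at 4853, 5401, 5554 and 5826 CPM, tendon cells at 4711.5, 4917, 4375 and 4732 CPM and mesenchymal cells of no other gate at 4451, 5813, 6302 and 5963 CPM. Skeletal muscle held 2574, 2496, 2461 and 2235 CPM, below every mesenchymal gate of its library. The erythroid gate, which should lack most of these mRNAs, held 1329.7, 1036, 2897 and 2116 CPM, and its cells without a Col2a1 UMI, a group chosen after seeing the data, 687, 193, 859.8 and 594 CPM. These were 142, 93, 70 and 42 erythroid cells, of which 110, 60, 39 and 32 had no Col2a1 UMI. Groups under 50 cells are below the minimum used for the order of gates. Col2a1 itself was at 385, 846, 2349.5 and 1565 CPM in the erythroid gate, highest in the mutant libraries, and the part of free RNA and doublets in the erythroid values was not tested. The 7 erythroid markers took 595152, 748239, 441741 and 542188 CPM of that gate, which lowers every other gene there by construction. Scaled by the UMIs outside these markers, a measure chosen after seeing the data, the members summed to 3284, 4116, 5189 and 4622 CPM in erythroid cells, near the chondrocyte level in some libraries and below the Gdf5-positive level in all.

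**Figure D1:**
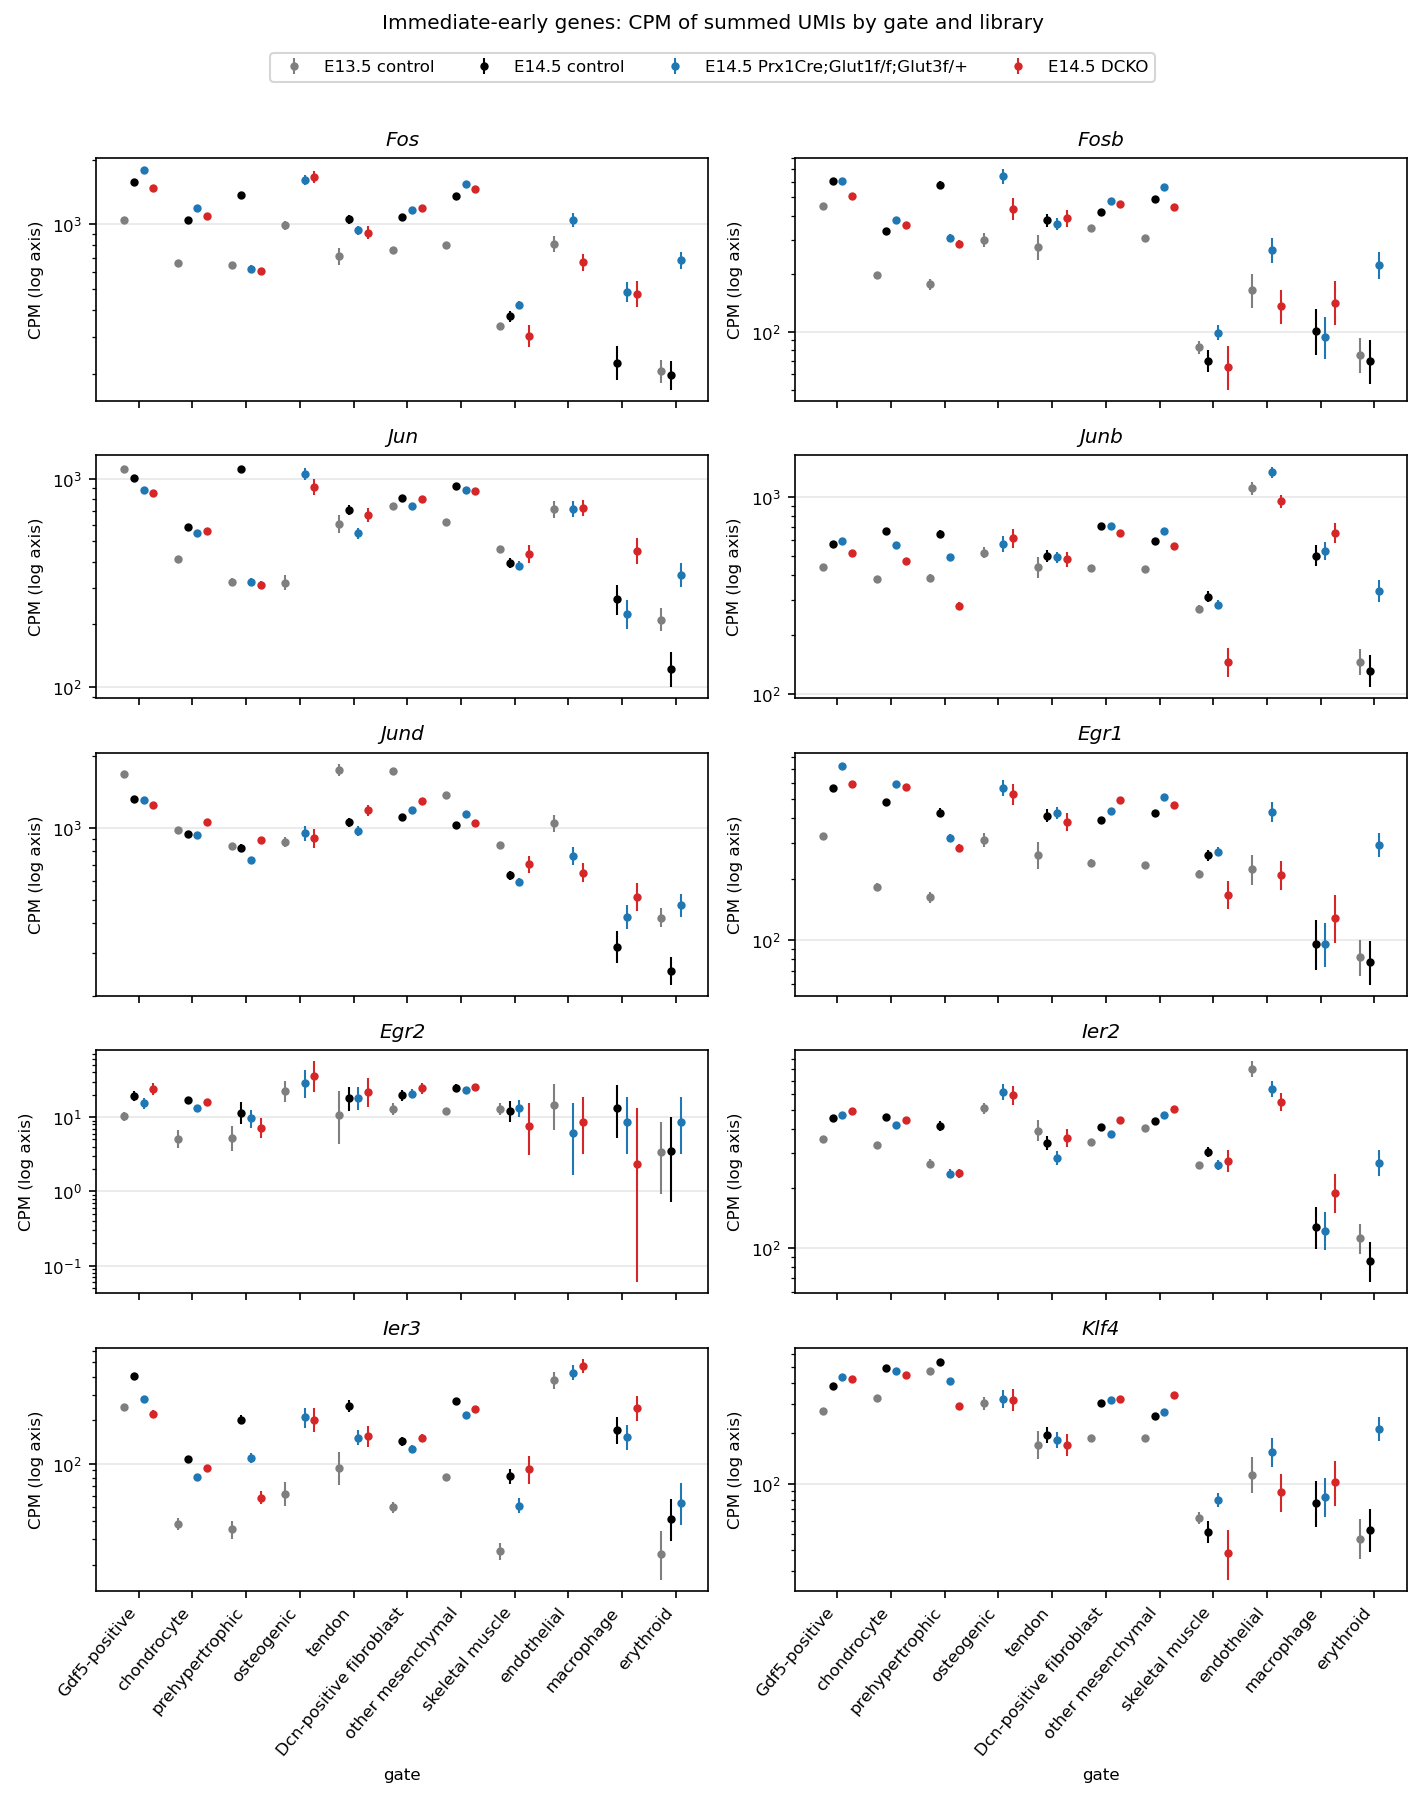
CPM of summed UMIs of each member (log axis) in the gates of at least 50 cells, with 1 point per library and exact Poisson 95% intervals as bars. Fos stands between 1051 and 1784 CPM in the Gdf5-positive gate, and the erythroid gate is at the low end for most members.

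Fos, the inducible partner of the Jun proteins in AP-1, was at 1051, 1581, 1784 and 1481 CPM in Gdf5-positive cells, 657, 1047, 1193 and 1093 CPM in chondrocytes and 647, 1368, 622 and 607 CPM in prehypertrophic cells (intervals within 3.33% of each value). It was highest in the Gdf5-positive gate of 3 libraries and in the osteogenic gate of the library labelled DCKO, at 1664 CPM (95% interval 1555 to 1777). In the E13.5 control the first neighbours in the order, Gdf5-positive and osteogenic, overlapped in their intervals, as did the endothelial and other mesenchymal gates. Fosb, a second Fos-family subunit, was at 449, 605, 612 and 506 CPM in Gdf5-positive cells, 197, 333, 379.7 and 360.4 CPM in chondrocytes and 177, 579, 307 and 285 CPM in prehypertrophic cells (within 6.34%). Gdf5-positive cells again led in 3 libraries, in the E14.5 control with an interval that overlapped that of the prehypertrophic gate. The osteogenic gate led in the library labelled G1KO, at 643 CPM (95% interval 587 to 702), with an interval that overlapped that of the Gdf5-positive gate.

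Jun, which can also dimerize with itself, was at 1118, 1004, 879 and 852 CPM in Gdf5-positive cells, 412, 584, 549 and 561 CPM in chondrocytes and 320.1, 1108, 319.9 and 308 CPM in prehypertrophic cells (within 4.70%). Its leading gate differed between libraries. The Gdf5-positive gate led in the E13.5 control, the prehypertrophic gate in the E14.5 control and the osteogenic gate in both mutant libraries. In the library labelled DCKO the osteogenic, other mesenchymal and Gdf5-positive gates formed a chain of overlapping neighbours. Junb, which competes with Jun for the same partners, was at 440.5, 574, 599 and 517 CPM in Gdf5-positive cells, 383, 669.6, 571 and 471 CPM in chondrocytes and 389, 647, 494 and 279 CPM in prehypertrophic cells (within 4.67%). The endothelial gate led for Junb in every library where it held at least 50 cells, with 1101 CPM in the E13.5 control, 1330.5 CPM in the library labelled G1KO and 948 CPM in the library labelled DCKO. Among the mesenchymal gates of the E13.5 control, Gdf5-positive cells, tendon, fibroblasts and other mesenchyme lay next to each other with overlapping intervals. Jund, the Jun gene with high resting transcription in many tissues, was at 1689, 1324, 1312 and 1252 CPM in Gdf5-positive cells, 982, 943, 933 and 1059 CPM in chondrocytes and 846, 827, 736 and 889 CPM in prehypertrophic cells (within 3.83%). Tendon led at E13.5, at 1750.2 CPM (95% interval 1649.6 to 1855), overlapping with fibroblasts. Gdf5-positive cells led in the E14.5 control and in the library labelled G1KO, and fibroblasts in the library labelled DCKO, there overlapping with Gdf5-positive cells.

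Egr1, a zinc-finger factor that binds GC-rich sites, was at 327, 564, 726 and 594 CPM in Gdf5-positive cells, 183, 479.5, 593 and 571 CPM in chondrocytes and 162, 426, 319.9 and 285 CPM in prehypertrophic cells (within 6.63%). The Gdf5-positive gate led in all 4 libraries, with an interval that overlapped that of its neighbour in the E13.5 control (osteogenic) and in the library labelled DCKO (chondrocyte). Egr2, known for its role in myelinating Schwann cells, had few UMIs, at 10.2, 19.3, 15.3 and 24.0 CPM in Gdf5-positive cells, 5.09, 17.0, 13.4 and 16.2 CPM in chondrocytes and 5.28, 11.5, 9.59 and 7.20 CPM in prehypertrophic cells. Its intervals reached 38.3% of a value, and nearly all neighbours in its order overlapped. Klf4, a factor of epithelial and stem cell identity, had another order, in which the prehypertrophic gate led in both controls and the chondrocyte gate in both mutant libraries. Its levels were 273, 385, 438 and 423 CPM in Gdf5-positive cells, 325, 493, 473 and 447 CPM in chondrocytes and 471, 532, 409 and 289.9 CPM in prehypertrophic cells (within 4.77%). It was lower in skeletal muscle, at 62.3, 51.3, 80.0 and 38.1 CPM.

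Ier2, a nuclear protein without a known DNA-binding domain, was at 356, 452, 472 and 490.4 CPM in Gdf5-positive cells, 329, 459.6, 417 and 443 CPM in chondrocytes and 266, 414, 237 and 238 CPM in prehypertrophic cells (within 5.42%). Gdf5-positive cells and chondrocytes differed little, and prehypertrophic cells were lower in each library, least so in the E14.5 control. There the 5 highest gates formed a chain of overlapping neighbours. Ier3, which modulates survival and ERK signalling, differed strongly between these gates. It was at 248, 405, 279 and 221 CPM in Gdf5-positive cells, 38.4, 107, 81.0 and 92.9 CPM in chondrocytes and 35.1, 202, 109.6 and 58.4 CPM in prehypertrophic cells (within 14.4%). Endothelial cells led where they were numerous enough, at 376 CPM in the E13.5 control, 425 CPM in the library labelled G1KO and 475 CPM in the library labelled DCKO. Next came Gdf5-positive cells in the E13.5 control and in the library labelled G1KO, and they led in the E14.5 control. In the library labelled DCKO they were 4th, behind overlapping macrophage and other mesenchymal gates.

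Shares of cells with a UMI were taken after thinning every cell to 2000 UMIs, which left out 33, 17, 15 and 4 shallower Gdf5-positive cells and 40, 124, 179 and 220 chondrocytes. Fos was then found in 72.0, 80.2, 85.2 and 80.4% of Gdf5-positive cells and 56.8, 71.0, 75.9 and 75.5% of chondrocytes. In erythroid cells it was found in 14.9, 13.1, 37.7 and 25.7%, and in erythroid cells without a Col2a1 UMI in 6.81, 3.05, 9.20 and 8.68%. Unthinned, the shares were 90.3, 92.3, 93.9 and 90.6% in Gdf5-positive cells and 27.5, 23.7, 47.1 and 35.7% in erythroid cells, with median erythroid depths of 7566.5, 8811, 7950.5 and 7893.5 UMIs. A Fos UMI was thus found in most Gdf5-positive cells, and the part of free RNA in this share was not tested. Thinning keeps the erythroid markers, so erythroid shares are low by construction and are no measure of background. Outside these markers Fos was at 511, 787, 1216 and 1078 CPM in erythroid cells, below its Gdf5-positive level in each library. Ier3 was in 32.0, 48.0, 36.0 and 32.2% of thinned Gdf5-positive cells and 6.56, 16.5, 13.3 and 15.9% of chondrocytes, against 2.44, 5.51, 6.55 and 7.72% of erythroid cells. Outside the erythroid markers Ier3 was at 58.8, 165, 95.9 and 130.1 CPM in erythroid cells, no lower than in chondrocytes. Of the 10 members, 2, 5, 1 and 2 in chondrocytes and 9, 8, 6 and 7 in Gdf5-positive cells lay above the erythroid level outside the markers with intervals apart. The erythroid gate of the library labelled DCKO held 42 cells, under the minimum of 50 set for ratios, so its values here are a description. The erythroid level outside the markers describes the mix of UMIs in these cells and not the amount of free RNA per cell. The counts of members above it thus do not measure background, and the part of free RNA in chondrocyte levels and shares was not tested. Egr2 was in 1.76, 3.29, 2.81 and 4.14% of thinned Gdf5-positive cells, against 0.434, 0.241, 1.21 and 2.25% of erythroid cells.

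Within a library, Gdf5-positive cells and chondrocytes shared digestion, preparation and sequencing, and the comparison asks how the interzone gate differed from cartilage beside it. Ier3 differed most, with log2 ratios of Gdf5-positive cells over chondrocytes of 2.69, 1.92, 1.78 and 1.25. In the E13.5 control the ratio was 2.69 (2.54 to 2.83), and in the library labelled DCKO 1.25 (1.16 to 1.34). Ier3 was higher in Gdf5-positive cells of every library, with the smallest ratio in the library labelled DCKO. Of the AP-1 genes, Fos had log2 ratios of 0.68, 0.59, 0.58 and 0.44. Fosb had 1.19, 0.86, 0.69 and 0.49. Jun had 1.44, 0.78, 0.68 and 0.60. All 3 were largest in the E13.5 control and smallest in the library labelled DCKO. Jund had 0.78, 0.49, 0.49 and 0.24. Junb had 0.20, -0.22, 0.07 and 0.13. Fos, Fosb, Jun and Jund were higher in Gdf5-positive cells in all 4 libraries, and Junb lay close to 0. Egr1 had 0.84, 0.23, 0.29 and 0.06. Egr2, on few UMIs, had 1.005, 0.18, 0.19 and 0.57. Klf4, at -0.25, -0.36, -0.11 and -0.08, was lower in Gdf5-positive cells than in chondrocytes in each library. Ier2, at 0.11, -0.02, 0.18 and 0.15, differed little between the gates. With TMM, Junb in G1KO and DCKO, and Egr1 and Ier2 in DCKO, turned below 0, and the other signs stayed.

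Members were counted as higher or lower where they had at least 20 CPM on either side and differed by at least 1.5-fold, beside all genes tested in the same way. In the E13.5 control 6 of 9 tested members were higher in Gdf5-positive cells and 0 lower, with a median log2 ratio of 0.78, while 9.62% of all tested genes were higher and 7.0% lower by that fold. In the E14.5 control 4 of 9 were higher and 0 lower (median 0.49), while 12.2% of all tested genes were higher and 5.33% lower by that fold. In the library labelled G1KO 3 of 9 were higher and 0 lower (median 0.49), while 10.6% of all tested genes were higher and 5.61% lower by that fold. In the library labelled DCKO 2 of 10 were higher and 0 lower (median 0.34), while 10.2% of all tested genes were higher and 3.34% lower by that fold. The share of members that was higher exceeded that of all genes in both controls and in the library labelled G1KO, while 2 of 10 in the library labelled DCKO lay near it. With TMM 1 member was higher in each mutant library, beside 6.87 and 5.52% of all genes. The median was lowest in the library labelled DCKO under each of these scalings. The order of the counts depended on the gates, since with stricter gates they were 6, 5, 4 and 5, beside 16.8, 17.0, 14.4 and 21.2% of all genes higher, a share that was also larger than with the gates used here. The medians of all genes were 0.05, 0.09, 0.08 and 0.10. TMM scaling aims to set a typical gene to no change, but here it took the medians of all genes below 0. They were then -0.06, -0.09, -0.10 and -0.13. The members' medians with TMM were 0.69, 0.32, 0.33 and 0.13, and relative to all genes they were 0.75, 0.42, 0.42 and 0.26. With TMM the split of all genes past the fold went from 57.9, 69.6, 65.3 and 75.3% higher to 44.4, 49.4, 41.5 and 40.9%. The genes tested also went from 6504, 6398, 6061 and 5921 to 5697, 5732, 5709 and 5594. In every comparison with TMM the 20 CPM minimum was applied after scaling, so the set of genes changed as well.

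A wider list of 32 other immediate-early genes gave 11 higher and 5 lower of 24 (median 0.36) in the E13.5 control, 7 higher and 4 lower of 26 (median 0.13) in the E14.5 control, 8 higher and 2 lower of 27 (median 0.18) in the library labelled G1KO and 7 higher and 0 lower of 26 (median 0.39) in the library labelled DCKO. In the E13.5 control the largest ratios on that list were those of Atf3, a stress-induced repressor of the ATF family, at 3.83 (3.50 to 4.17), Dusp1, a phosphatase of p38 and JNK, at 2.79 (2.64 to 2.94), Ccn2, at -2.45 (-2.71 to -2.20), and Zfp36l1, an mRNA decay factor, at 2.27 (2.16 to 2.39). Atf3, Dusp1 and Zfp36l1 were also the largest in both E14.5 mutant libraries and the E14.5 control, each time higher in the Gdf5-positive gate. Heat shock genes, induced by protein damage, gave 1 higher and 0 lower of 9 (median -0.06), 1 higher and 0 lower of 10 (median 0.10), 1 higher and 0 lower of 10 (median 0.08) and 2 higher and 0 lower of 11 (median 0.09). ERK feedback genes gave 1 higher and 1 lower of 5 (median 0.25), 1 higher and 1 lower of 5 (median 0.13), 1 higher and 1 lower of 4 (median 0.08) and 1 higher and 0 lower of 4 (median 0.29), with as many lower as higher in the first 3. SRF and CREB pathway genes gave 3 higher and 0 lower of 5 (median 0.65), 3 higher and 0 lower of 6 (median 0.77), 2 higher and 0 lower of 7 (median 0.47) and 1 higher and 0 lower of 5 (median 0.25). Other AP-1 family genes gave 2 higher and 2 lower of 7 (median -0.11), 1 higher and 2 lower of 8 (median 0.05), 1 higher and 2 lower of 8 (median 0.15) and 2 higher and 2 lower of 7 (median -0.01).

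The E14.5 control against the E13.5 control asks how the genes changed over a day of joint formation in embryos without Cre. The control libraries also differed in sex composition, as given above, and the part of sex in the age differences was not tested. In all 3 gates most members were higher at E14.5, most in prehypertrophic cells, and Jund was not. The log2 ratios of Ier3, E14.5 over E13.5, were 0.71 (0.65 to 0.77) in Gdf5-positive cells, 1.48 (1.33 to 1.62) in chondrocytes and 2.52 (2.29 to 2.76) in prehypertrophic cells. Those of Egr1 were 0.78 (0.73 to 0.84) in Gdf5-positive cells, 1.39 (1.32 to 1.46) in chondrocytes and 1.40 (1.27 to 1.52) in prehypertrophic cells. Ier3 was higher at E14.5 in each of the 8 gates with at least 50 cells in both libraries, and Egr1 in 7, all but the erythroid. Outside the erythroid markers, Ier3 in erythroid cells was at 58.8 CPM at E13.5 and 165 CPM at E14.5. Egr1 was at 202 and 306 CPM there, with overlapping intervals, and with TMM it was higher at E14.5 in 8 of 8 gates. The part of free RNA in the age ratios was not tested. Among AP-1 genes, the log2 ratios of Fos were 0.59 (0.56 to 0.62) in Gdf5-positive cells, 0.67 (0.64 to 0.71) in chondrocytes and 1.08 (1.02 to 1.15) in prehypertrophic cells. Fosb gave 0.43 (0.38 to 0.48) in Gdf5-positive cells, 0.76 (0.70 to 0.83) in chondrocytes and 1.71 (1.60 to 1.82) in prehypertrophic cells. Jun was lower at E14.5 in Gdf5-positive cells and higher in cartilage, with -0.15 (-0.19 to -0.12) in Gdf5-positive cells, 0.50 (0.46 to 0.55) in chondrocytes and 1.79 (1.71 to 1.87) in prehypertrophic cells. Junb gave 0.38 (0.33 to 0.43) in Gdf5-positive cells, 0.81 (0.76 to 0.85) in chondrocytes and 0.74 (0.65 to 0.82) in prehypertrophic cells. Jund went the other way, at -0.35 (-0.38 to -0.32) in Gdf5-positive cells, -0.06 (-0.09 to -0.03) in chondrocytes and -0.03 (-0.10 to 0.04) in prehypertrophic cells. It was lower at E14.5 in 8 of 8 gates, with an interval below 0 in 7. These include the erythroid gate, at -0.74, where the erythroid markers lower other genes by construction. Outside these markers Jund was at 1046 CPM at E13.5 and 1011 CPM at E14.5 there, with overlapping intervals. With TMM factors it turned to 0.05 in chondrocytes and 0.14 in prehypertrophic cells and stayed at -0.31 in Gdf5-positive cells.

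The log2 ratios of Klf4 were 0.50 (0.43 to 0.56) in Gdf5-positive cells, 0.60 (0.55 to 0.65) in chondrocytes and 0.18 (0.09 to 0.27) in prehypertrophic cells. Ier2 gave 0.35 (0.29 to 0.40) in Gdf5-positive cells, 0.48 (0.43 to 0.53) in chondrocytes and 0.64 (0.53 to 0.75) in prehypertrophic cells. Egr2 gave 0.92 (0.61 to 1.22) in Gdf5-positive cells, 1.74 (1.34 to 2.16) in chondrocytes and 1.13 (0.39 to 1.88) in prehypertrophic cells, from levels under the 20 CPM that a count needed. All 3 were higher at E14.5 in each of these gates. In Gdf5-positive cells 3 of 9 tested members were higher and 0 lower, with a median log2 ratio of 0.43, while 7.13% of all tested genes were higher and 5.33% lower by that fold and the median of all genes was -0.04. In chondrocytes 6 of 9 tested members were higher and 0 lower, with a median log2 ratio of 0.67, while 4.87% of all tested genes were higher and 6.6% lower by that fold and the median of all genes was -0.11. In prehypertrophic cells 7 of 9 tested members were higher and 0 lower, with a median log2 ratio of 1.08, while 5.8% of all tested genes were higher and 13.1% lower by that fold and the median of all genes was -0.14. The members' medians thus lay above those of all genes in each gate. TMM moved the median of all genes in chondrocytes, to 0.01, and in prehypertrophic cells, to 0.05. Relative to all genes the members' medians were then 0.77 and 1.20. Of all genes past the fold, 42.5% were higher in chondrocytes with CPM and 64.4% with TMM, and 30.6% and 58.9% in prehypertrophic cells.

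The other immediate-early genes had 11 higher and 1 lower of 26 in Gdf5-positive cells (median 0.48), 11 higher and 0 lower of 26 in chondrocytes (median 0.48) and 10 higher and 1 lower of 25 in prehypertrophic cells (median 0.48). In chondrocytes the largest were Atf3 at 1.87 (1.54 to 2.21), the orphan nuclear receptors Nr4a1 at 1.60 (1.48 to 1.72) and Nr4a2 at 1.497 (1.40 to 1.60), and the mRNA decay factor Zfp36 at 1.45 (1.25 to 1.66). In Gdf5-positive cells they were Ccn2 at 2.02 (1.75 to 2.29), Fosl2 at 1.20 (0.91 to 1.49), Klf2 at 1.19 (1.13 to 1.25) and Btg1 at 1.08 (0.996 to 1.16). In prehypertrophic cells they were Atf3 at 2.72 (2.34 to 3.13), Btg2 at 1.94 (1.72 to 2.16), Klf6 at 1.51 (1.28 to 1.74) and Dusp1 at 1.40 (1.06 to 1.74). The wider list thus had positive medians in all 3 gates, as the members had. Heat shock genes had 2 higher and 0 lower of 10 in Gdf5-positive cells (median 0.09), 1 higher and 0 lower of 9 in chondrocytes (median -0.01) and 1 higher and 2 lower of 11 in prehypertrophic cells (median 0.08). Their medians lay near 0, and their summed level was 7224, 7512, 6933 and 8335 CPM in Gdf5-positive cells and 7379.8, 7477, 6718 and 7949.8 CPM in chondrocytes. ERK feedback genes had 1 higher and 0 lower of 5 in Gdf5-positive cells (median 0.21), 0 higher and 0 lower of 4 in chondrocytes (median 0.24) and 1 higher and 1 lower of 4 in prehypertrophic cells (median -0.21). SRF and CREB pathway genes had 1 higher and 0 lower of 6 in Gdf5-positive cells (median 0.46), 0 higher and 0 lower of 3 in chondrocytes (median 0.30) and 1 higher and 0 lower of 3 in prehypertrophic cells (median -0.11), and Tagln, an SRF target of smooth muscle, was the largest in Gdf5-positive cells, at 1.78 (1.61 to 1.96). Other AP-1 family genes had 2 higher and 1 lower of 8 in Gdf5-positive cells (median 0.18), 2 higher and 0 lower of 8 in chondrocytes (median 0.22) and 2 higher and 1 lower of 8 in prehypertrophic cells (median 0.08), and Jdp2, an AP-1 repressor, was the largest in Gdf5-positive cells, at 1.45 (1.28 to 1.61). Markers moved with age as well: cartilage markers summed higher at E14.5 in the chondrocyte and Gdf5-positive gates, and in the prehypertrophic gate they went from 13884 to 21819.5 CPM while the hypertrophy markers were lower. The part of cell composition in the age differences was not tested.

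**Figure D2:**
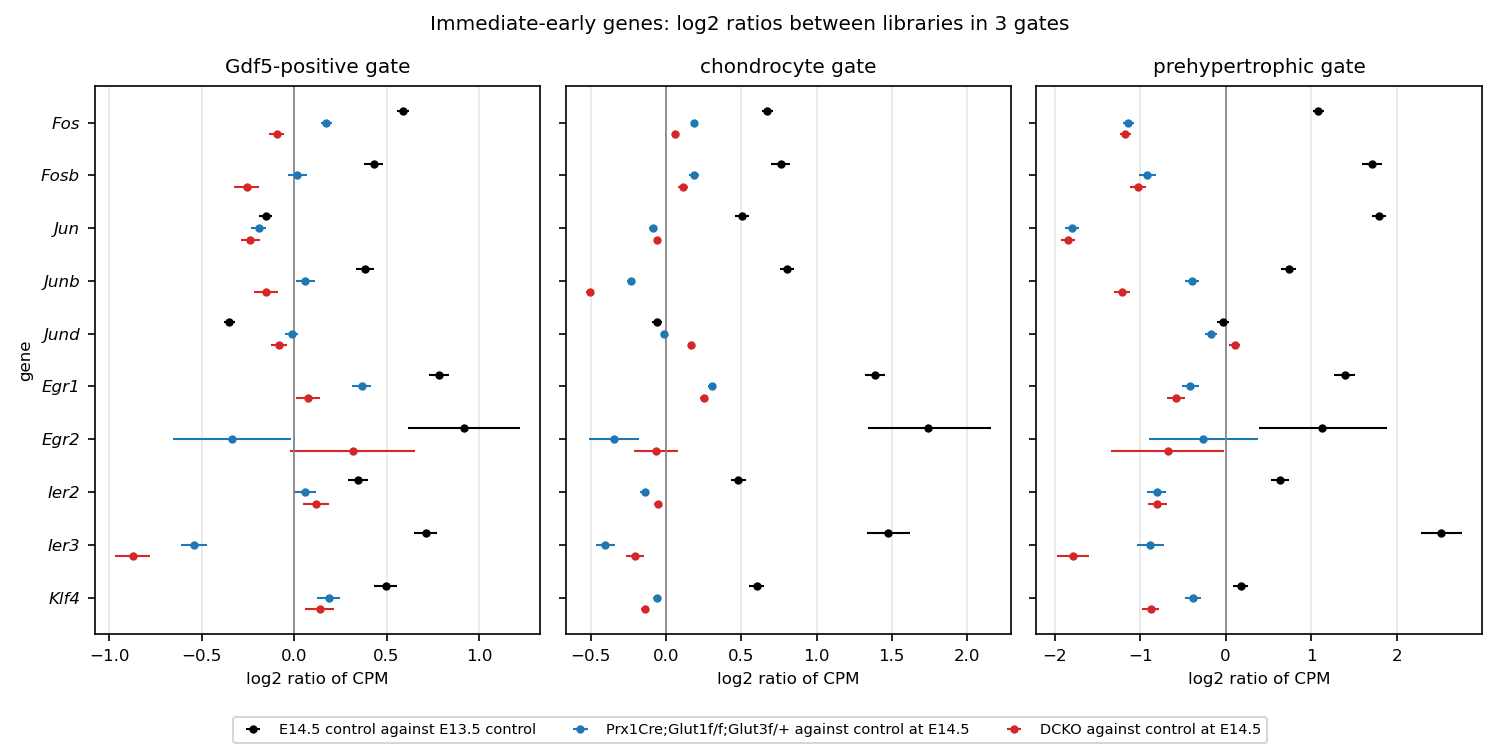
Log2 ratios of CPM for each member in the Gdf5-positive, chondrocyte and prehypertrophic gates, for the age comparison and for each mutant library against the E14.5 control, with exact conditional 95% intervals as bars. In prehypertrophic cells Jun stands at 1.79 with age, -1.79 in the library labelled G1KO and -1.84 in the library labelled DCKO.

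The comparisons of each mutant library with the E14.5 control ask how loss of glucose transporters bears on the cells of the joint region. They share the control library, so an unusual control would move both in the same way, and their values are given side by side, G1KO first and DCKO second. In Gdf5-positive cells and chondrocytes most members differed little from the control, while in prehypertrophic cells most were lower. Jun in prehypertrophic cells went from 1108 CPM (95% interval 1071 to 1145) in the control to 319.9 CPM (95% interval 305 to 335) in the library labelled G1KO and 308 CPM (95% interval 295 to 322) in the library labelled DCKO, and the E13.5 control stood at 320.1 CPM (95% interval 305 to 335). For Jun the E14.5 control was thus the library that stood apart, with the other 3 close to each other. The log2 ratios were -1.79 (-1.87 to -1.71) for G1KO and -1.84 (-1.92 to -1.76) for DCKO. Fos in prehypertrophic cells had the same form, at -1.14 (-1.20 to -1.07) and -1.17 (-1.24 to -1.11). Fosb was lower than the control as well, at -0.91 (-1.01 to -0.82) and -1.02 (-1.12 to -0.93), but its E13.5 level lay below both mutant libraries. Junb was lower too, at -0.39 (-0.47 to -0.31) and -1.22 (-1.31 to -1.12), with the lower value in DCKO. Jund was slightly lower in G1KO, at -0.17 (-0.24 to -0.10), and was the exception among AP-1 genes in DCKO, at 0.11 (0.04 to 0.17). Egr1 gave -0.41 (-0.52 to -0.31) and -0.58 (-0.68 to -0.48) in that gate. Egr2, on few UMIs, gave -0.27 (-0.90 to 0.38) and -0.68 (-1.34 to -0.01). Klf4 gave -0.38 (-0.47 to -0.29) and -0.88 (-0.97 to -0.78), again lower in DCKO. Ier2 gave -0.80 (-0.91 to -0.69) and -0.80 (-0.91 to -0.69). Ier3 gave -0.88 (-1.04 to -0.72) and -1.79 (-1.98 to -1.60). Both were lower than the control in each mutant library, and Ier3 was lower in DCKO than in G1KO.

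Among prehypertrophic cells of the library labelled G1KO, 0 of 9 tested members were higher and 5 lower, with a median log2 ratio of -0.80, while 4.23% of all tested genes were higher and 4.94% lower by that fold and the median of all genes was -0.05. For the library labelled DCKO, 0 of 9 tested members were higher and 7 lower, with a median log2 ratio of -1.02, while 5.48% of all tested genes were higher and 16.6% lower by that fold and the median of all genes was -0.18. The share of members that was lower exceeded that of all genes in both libraries. TMM moved the median of all genes for DCKO to 0.03, and relative to it the members' median was -0.86. Markers differed in this gate as well. Col10a1, given above, and Pth1r, at 463, 235, 349 and 338 CPM, were higher in the mutant libraries than in the E14.5 control, and Panx3 was at 312, 270.1, 302 and 208 CPM. The part of these differences in the member values was not tested. In prehypertrophic cells with at least 3 Ihh UMIs, 332, 91, 156 and 183 cells, a group chosen after seeing the data, the members' medians were 1.15 with age, -0.87 for G1KO and -1.10 for DCKO, as large as in the whole gate.

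In Gdf5-positive cells Ier3 was the member that was lowest relative to the control, at 405 CPM (95% interval 393 to 418) in the control, 279 CPM (95% interval 268 to 289) in the library labelled G1KO and 221 CPM (95% interval 209 to 234) in the library labelled DCKO. The level was thus lower in G1KO than in the control and lower again in DCKO, where it stood near that of the E13.5 control, and the log2 ratios were -0.54 (-0.61 to -0.47) and -0.87 (-0.97 to -0.78). In thinned cells the share with an Ier3 UMI stood at 32.0, 48.0, 36.0 and 32.2%. Egr1 was higher than the control in both, at 0.36 (0.31 to 0.42) and 0.07 (0.01 to 0.14). Fos gave 0.17 (0.14 to 0.21) and -0.09 (-0.13 to -0.05), and with TMM the latter was 0.02. Fosb gave 0.02 (-0.04 to 0.07) and -0.26 (-0.32 to -0.19). Jun gave -0.19 (-0.23 to -0.15) and -0.24 (-0.29 to -0.19). Jun was thus lower than the control in both libraries and Fosb in DCKO. Junb gave 0.06 (0.01 to 0.11) and -0.15 (-0.22 to -0.09). Jund gave -0.01 (-0.05 to 0.02) and -0.08 (-0.12 to -0.04), and both turned above 0 with TMM, to 0.10 and 0.03. Klf4 gave 0.19 (0.12 to 0.25) and 0.14 (0.06 to 0.21). Ier2 gave 0.06 (0.0002 to 0.12) and 0.12 (0.05 to 0.19). Klf4 and Ier2 thus stayed within a small distance above the control. Egr2 gave -0.34 (-0.65 to -0.02) and 0.32 (-0.02 to 0.65). Ier3 in DCKO was the single member past the fold in this gate. For the library labelled G1KO, 0 of 9 tested members were higher and 0 lower, with a median log2 ratio of 0.06, while 0.381% of all tested genes were higher and 2.72% lower by that fold and the median of all genes was -0.12. For the library labelled DCKO, 0 of 10 tested members were higher and 1 lower, with a median log2 ratio of -0.09, while 1.45% of all tested genes were higher and 7.41% lower by that fold and the median of all genes was -0.12. TMM brought the medians of all genes to -0.001 and 0.001 and those of the members to 0.17 and 0.02, so the sign of the DCKO median turned. Relative to all genes the medians were 0.17 and 0.02. Of all genes past the fold, 12.3% were higher with CPM and 32.8% with TMM for G1KO, and 16.4% and 35.4% for DCKO.

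In chondrocytes no member was past the fold. Junb was lower than the control in both, at -0.23 (-0.26 to -0.21) for G1KO and -0.51 (-0.53 to -0.48) for DCKO. Ier3 was lower too, at -0.40 (-0.47 to -0.34) and -0.20 (-0.26 to -0.14). Egr1 was higher, at 0.31 (0.28 to 0.33) and 0.25 (0.23 to 0.28). So was Fos, at 0.19 (0.17 to 0.21) and 0.06 (0.04 to 0.08). Fosb was also higher, at 0.19 (0.15 to 0.22) and 0.11 (0.08 to 0.14). In erythroid cells, outside the erythroid markers, Fos was at 787 CPM in the E14.5 control, 1216 in G1KO and 1078 in DCKO. In the same order Egr1 was at 306, 529 and 401 CPM there and Fosb at 279, 399 and 282 CPM. The part of free RNA in the chondrocyte ratios was not tested. Jun gave -0.09 (-0.11 to -0.06) and -0.06 (-0.08 to -0.03). Klf4 gave -0.06 (-0.09 to -0.03) and -0.14 (-0.17 to -0.11). Both turned above 0 with TMM in each library. Jund gave -0.01 (-0.04 to 0.01) and 0.17 (0.15 to 0.19). Ier2 gave -0.14 (-0.17 to -0.11) and -0.05 (-0.08 to -0.03). Egr2 gave -0.34 (-0.51 to -0.18) and -0.06 (-0.21 to 0.08). With TMM, Jund turned above 0 for G1KO, as did Ier2 and Egr2 for DCKO. For the library labelled G1KO, 0 of 9 tested members were higher and 0 lower, with a median log2 ratio of -0.06, while 1.06% of all tested genes were higher and 1.23% lower by that fold and the median of all genes was -0.10. For the library labelled DCKO, 0 of 9 tested members were higher and 0 lower, with a median log2 ratio of -0.05, while 1.68% of all tested genes were higher and 4.74% lower by that fold and the median of all genes was -0.13. With TMM the members' medians turned to 0.05 and 0.10, and relative to all genes they were 0.04 and 0.07. TMM took the median of all genes to 0.01 and 0.03. The share of higher genes among all past the fold went from 46.2% to 73.2% for G1KO and from 26.2% to 58.5% for DCKO. In prehypertrophic cells of DCKO it went from 24.8% to 52.4%, while the members' median there stayed negative, at -0.83. For chondrocytes, the direction of the members' median thus depended on the scaling.

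The other immediate-early genes showed for G1KO 0 higher and 2 lower of 27 in Gdf5-positive cells (median -0.06), 0 higher and 3 lower of 26 in chondrocytes (median -0.25) and 1 higher and 10 lower of 26 in prehypertrophic cells (median -0.48). For DCKO they showed 0 higher and 5 lower of 27 in Gdf5-positive cells (median -0.20), 0 higher and 10 lower of 26 in chondrocytes (median -0.29) and 0 higher and 16 lower of 25 in prehypertrophic cells (median -0.94). In chondrocytes of DCKO the largest were the matrix protein gene Ccn2 at -1.73 (-1.85 to -1.62), the stress genes Gadd45b at -1.72 (-1.77 to -1.67) and Gadd45g at -1.71 (-1.78 to -1.64), and Klf10, a TGF-beta-inducible factor, at -1.25 (-1.35 to -1.16). In prehypertrophic cells of DCKO Gadd45b stood at 57.9 against 706 CPM, log2 ratio -3.61 (-3.77 to -3.45), followed by Gadd45g at -3.14 (-3.38 to -2.90), Ccn2 at -2.56 (-2.85 to -2.27) and Klf10 at -2.41 (-2.75 to -2.08). For G1KO the largest in that gate were Ccn2 at -2.25 (-2.54 to -1.98), Ccn1 at -1.63 (-1.75 to -1.51), Gadd45b at -1.43 (-1.53 to -1.34) and Dusp5 at 1.43 (0.98 to 1.90). In Gdf5-positive cells of DCKO the largest were Dusp1 at -1.03 (-1.16 to -0.90), Zfp36l1 at -1.01 (-1.11 to -0.92), Socs3 at -0.87 (-1.03 to -0.72) and Ccn2 at -0.82 (-1.14 to -0.51). In Gdf5-positive cells and chondrocytes of DCKO the wider list thus held genes past the fold, all lower, while 1 member (Ier3) was past it, and 7.41 and 4.74% of all genes were lower.

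Heat shock genes showed for G1KO 0 higher and 0 lower of 11 in Gdf5-positive cells (median -0.14), 0 higher and 0 lower of 9 in chondrocytes (median -0.19) and 2 higher and 0 lower of 11 in prehypertrophic cells (median -0.30). For DCKO they showed 1 higher and 0 lower of 11 in Gdf5-positive cells (median 0.16), 1 higher and 0 lower of 11 in chondrocytes (median 0.14) and 2 higher and 2 lower of 11 in prehypertrophic cells (median -0.24). Hspa1a, the inducible Hsp70, was the largest for DCKO in Gdf5-positive cells, at 42.6 against 18.7 CPM, log2 ratio 1.19 (0.90 to 1.48), and in chondrocytes, at 27.7 against 7.59 CPM, log2 ratio 1.87 (1.69 to 2.05). The heat shock sum was highest in DCKO in both gates. ERK feedback genes showed for G1KO 0 higher and 1 lower of 5 in Gdf5-positive cells (median -0.05), 0 higher and 0 lower of 4 in chondrocytes (median -0.12) and 0 higher and 1 lower of 3 in prehypertrophic cells (median -0.17). For DCKO they showed 0 higher and 2 lower of 5 in Gdf5-positive cells (median -0.37), 0 higher and 3 lower of 4 in chondrocytes (median -0.63) and 0 higher and 3 lower of 3 in prehypertrophic cells (median -1.27). With 3 to 5 genes tested, the absence of higher genes says little, as few of all genes were higher. Spry2, an inhibitor of receptor tyrosine kinase signalling, was among them in chondrocytes of DCKO, at -1.24 (-1.36 to -1.13). SRF and CREB pathway genes showed for G1KO 0 higher and 1 lower of 7 in Gdf5-positive cells (median -0.18), 0 higher and 0 lower of 4 in chondrocytes (median 0.05) and 0 higher and 0 lower of 4 in prehypertrophic cells (median -0.06). For DCKO they showed 0 higher and 3 lower of 6 in Gdf5-positive cells (median -0.55), 0 higher and 0 lower of 3 in chondrocytes (median -0.21) and 0 higher and 1 lower of 3 in prehypertrophic cells (median -0.36). Tagln was the largest in Gdf5-positive cells of both, at 36.3 against 81.1 CPM, log2 ratio -1.16 (-1.34 to -0.98) for G1KO and 18.6 against 81.1 CPM, log2 ratio -2.12 (-2.44 to -1.82) for DCKO. Other AP-1 family genes, a list that shares 4 genes with the other immediate-early genes (Fosl1, Fosl2, Atf3 and Maff), showed for G1KO 0 higher and 0 lower of 8 in Gdf5-positive cells (median -0.17), 0 higher and 0 lower of 8 in chondrocytes (median -0.23) and 1 higher and 1 lower of 8 in prehypertrophic cells (median -0.15). For DCKO they showed 0 higher and 0 lower of 8 in Gdf5-positive cells (median -0.05), 0 higher and 1 lower of 8 in chondrocytes (median -0.09) and 1 higher and 3 lower of 8 in prehypertrophic cells (median -0.30). Fosl2 was the largest of these in chondrocytes of DCKO, at -1.09 (-1.25 to -0.93).

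The library labelled DCKO against the library labelled G1KO does not use the control and asks what loss of the remaining Glut3 allele adds. In Gdf5-positive cells Ier3 was at -0.33 (-0.43 to -0.23). Egr2, at 0.65 (0.30 to 1.002), was the member past the fold there, on 154 UMIs in G1KO and 125 in DCKO. With stricter gates no member was past it upwards. Fos gave -0.27 (-0.31 to -0.23). Fosb gave -0.27 (-0.34 to -0.21). Egr1 gave -0.29 (-0.35 to -0.23), so all 3 were lower in DCKO. Junb in chondrocytes gave -0.28 (-0.30 to -0.25). In prehypertrophic cells Junb was lower, at -0.82 (-0.91 to -0.74), and so was Ier3, at -0.91 (-1.10 to -0.72), while Jun differed by -0.05 (-0.15 to 0.04). Klf4 was lower too, at -0.50 (-0.59 to -0.41), and Jund higher, at 0.27 (0.21 to 0.33). Junb and Ier3 were the members past the fold between the mutant libraries in this gate. In Gdf5-positive cells 1 of 10 tested members were higher and 0 lower, with a median log2 ratio of -0.14, while 1.37% of all tested genes were higher and 2.26% lower by that fold and the median of all genes was 0.002. In chondrocytes 0 of 9 tested members were higher and 0 lower, with a median log2 ratio of -0.05, while 0.847% of all tested genes were higher and 1.1% lower by that fold and the median of all genes was -0.02. In prehypertrophic cells 0 of 9 tested members were higher and 2 lower, with a median log2 ratio of -0.11, while 1.86% of all tested genes were higher and 7.77% lower by that fold and the median of all genes was -0.12. With TMM the median of all genes in prehypertrophic cells was 0.04, that of the members turned to 0.04, and 45.5% of all genes past the fold were higher in place of 19.3%. The other immediate-early genes had 0 higher and 2 lower of 27 in Gdf5-positive cells (median -0.02), 1 higher and 5 lower of 25 in chondrocytes (median -0.19) and 0 higher and 13 lower of 26 in prehypertrophic cells (median -0.54). Heat shock genes had 2 higher and 0 lower of 11 in Gdf5-positive cells (median 0.29), 2 higher and 0 lower of 11 in chondrocytes (median 0.29) and 0 higher and 0 lower of 11 in prehypertrophic cells (median -0.01). The first list thus had more genes lower than higher past the fold. For the second, 0 lower of 11 says little, as few of all genes were lower. ERK feedback genes had 0 higher and 0 lower of 4 in Gdf5-positive cells (median -0.32), 0 higher and 1 lower of 3 in chondrocytes (median -0.58) and 0 higher and 1 lower of 2 in prehypertrophic cells (median -0.78). SRF and CREB pathway genes had 0 higher and 1 lower of 7 in Gdf5-positive cells (median -0.20), 0 higher and 1 lower of 4 in chondrocytes (median -0.11) and 0 higher and 1 lower of 3 in prehypertrophic cells (median -0.33). Other AP-1 family genes had 0 higher and 0 lower of 8 in Gdf5-positive cells (median 0.02), 1 higher and 0 lower of 7 in chondrocytes (median 0.18) and 0 higher and 2 lower of 8 in prehypertrophic cells (median -0.18).

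Cells outside the limb mesenchyme are not the target of Prx1Cre. In skeletal muscle, where the summed level was given above, Fos gave log2 ratios of 0.15 (0.05 to 0.25) with age, 0.17 (0.07 to 0.28) for G1KO and -0.30 (-0.49 to -0.11) for DCKO. Junb gave 0.20 (0.10 to 0.31) with age, -0.14 (-0.26 to -0.02) for G1KO and -1.10 (-1.37 to -0.84) for DCKO. Egr1 gave 0.30 (0.18 to 0.42) with age, 0.06 (-0.06 to 0.19) for G1KO and -0.65 (-0.91 to -0.40) for DCKO. Junb and Egr1 were thus lower past the fold in muscle of DCKO, which held 88 cells. Fosb gave -0.24 (-0.46 to -0.02) with age, 0.49 (0.26 to 0.72) for G1KO and -0.10 (-0.54 to 0.31) for DCKO. Jun gave -0.22 (-0.32 to -0.13) with age, -0.03 (-0.14 to 0.07) for G1KO and 0.15 (-0.01 to 0.32) for DCKO. Jund gave -0.42 (-0.49 to -0.35) with age, -0.10 (-0.18 to -0.02) for G1KO and 0.15 (0.02 to 0.28) for DCKO. These 3 AP-1 genes were thus lower with age in muscle, whereas Fos and Junb were higher. Klf4 gave -0.28 (-0.54 to -0.03) with age, 0.64 (0.38 to 0.91) for G1KO and -0.43 (-0.996 to 0.11) for DCKO. Ier2 gave 0.22 (0.11 to 0.33) with age, -0.22 (-0.34 to -0.10) for G1KO and -0.15 (-0.35 to 0.05) for DCKO. Ier3 gave 1.71 (1.45 to 1.98) with age, -0.67 (-0.93 to -0.42) for G1KO and 0.16 (-0.21 to 0.52) for DCKO. The ratio of Ier3 with age in muscle was thus no smaller than in chondrocytes, and Egr2 had at most 110 UMIs in a library there.

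With age, 1 of 9 tested members were higher and 0 lower, beside 2.97 and 6.32% of all genes in muscle. For G1KO, 1 of 9 tested members were higher and 1 lower, beside 1.47 and 1.89% of all genes. For DCKO, 0 of 9 tested members were higher and 2 lower, beside 2.99 and 6.71% of all genes. Members of muscle thus went in both directions. The endothelial gate, with 29 cells in the E14.5 control, could be compared between the mutant libraries, with 68 and 75 cells. For DCKO against G1KO Egr1 gave -1.04 (-1.34 to -0.75) there. Fosb gave -0.98 (-1.35 to -0.61). Klf4 gave -0.80 (-1.28 to -0.33). Fos gave -0.66 (-0.83 to -0.49), so these 4 were lower past the fold. Junb gave -0.49 (-0.64 to -0.34). Jund gave -0.23 (-0.42 to -0.05). Ier2 gave -0.22 (-0.43 to -0.02). Those 3 were lower by less than the fold. Jun gave 0.02 (-0.16 to 0.20). Ier3 gave 0.16 (-0.07 to 0.40). Jun and Ier3 thus did not differ beyond counting error, and Egr2 had 4 and 6 UMIs. In this gate 0 of 9 tested members were higher and 4 lower, beside 9.63 and 11.5% of all genes.

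Macrophages could be compared at E14.5, where Fos gave 1.10 (0.79 to 1.41) for G1KO and 1.07 (0.74 to 1.41) for DCKO. Jun gave -0.23 (-0.57 to 0.10) and 0.78 (0.46 to 1.10) there. For G1KO, 1 of 9 tested members were higher and 0 lower, beside 10.5 and 14.2% of all genes. For DCKO, 3 of 9 tested members were higher and 0 lower, beside 11.3 and 17.2% of all genes. The macrophage gate held 62, 81 and 68 cells in the E14.5 libraries, with median depths of 3839.5, 6919 and 3180.5 UMIs. It held S100a8, a gene of neutrophils, at 1363, 4965.5 and 2794 CPM and S100a9 at 1058, 5165 and 3227 CPM in the same libraries, so it may hold other myeloid cells in unlike parts, and what this adds to the ratios was not tested. Dissociation response and state in the embryo cannot be told apart in any of these values, since every library was digested and no undissociated sample was analysed here.

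Over the 40 combinations of library and gate with at least 50 cells, the genes outside the members whose log2(CPM + 1) correlated best with that of the members' sum were, of 9437 genes, Tsc22d2 (Pearson r = 0.907), Mmp2 (0.904), Arl5b (0.896), Nfat5 (0.895) and Tmem59 (0.895). The points share libraries and gates, so these coefficients are a description. Erythroid gates are among the points, and there the erythroid markers lower every other gene by construction. The part of this in the coefficients, also in those of the members below, was not tested. Each member was set against the sum of the other 9, since it would follow a sum that holds it in part by construction. Fos followed that sum most closely, at 0.931, and Ier3 least, at 0.588.

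Promoters are shown because induction of these genes is known to pass through CREB, AP-1 and serum response factor. RefSeq entries (GRCm38.p6) were found for 8 of the 10 members, all but Egr1 and Ier2, and the 250 bases before each start were searched on both strands. TGACG, which is part of the cAMP response element TGACGTCA, was in the windows of 5 members (Fos, Fosb, Junb, Egr2 and Klf4) and in 17.8% of 32851 promoters of the same length. TGACGTCA itself was in 0 of 8 and 1.55% of all, and the AP-1 element TGACTCA in 0 of 8 and 4.46%. The CArG box was in 1 of 8, Egr2, and 1.47%, and TATAAA in 1 of 8, Fos, and 12.4%. A member counted where any of its windows had a match, while each percentage is of single promoters, so the shares have different units. A match is a description of letters and not a site in use. An absent match holds for these 250 bases alone, since sequence further upstream was not searched. The windows below are Fos at chr12:85473640-85473889 (+ strand), Fosb at chr7:19310046-19310295 (- strand), Junb at chr8:84978749-84978998 (- strand) and 1 of several Egr2 starts at chr10:67537619-67537868 (+ strand), written 5′ to 3′ on the gene's strand, with capitals at the matches of TGACG on either strand, of TATAAA in Fos and of the CArG box in Egr2.
Fos: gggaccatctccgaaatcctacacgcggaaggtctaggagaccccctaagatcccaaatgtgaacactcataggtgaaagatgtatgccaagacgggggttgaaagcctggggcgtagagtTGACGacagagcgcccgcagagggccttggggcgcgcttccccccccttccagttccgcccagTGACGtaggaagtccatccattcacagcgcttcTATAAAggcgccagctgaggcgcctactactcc
Fosb: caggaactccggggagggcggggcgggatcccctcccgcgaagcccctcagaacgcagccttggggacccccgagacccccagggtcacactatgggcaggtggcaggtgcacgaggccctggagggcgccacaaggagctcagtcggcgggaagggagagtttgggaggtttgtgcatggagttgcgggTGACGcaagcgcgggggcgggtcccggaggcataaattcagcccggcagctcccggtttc
Junb: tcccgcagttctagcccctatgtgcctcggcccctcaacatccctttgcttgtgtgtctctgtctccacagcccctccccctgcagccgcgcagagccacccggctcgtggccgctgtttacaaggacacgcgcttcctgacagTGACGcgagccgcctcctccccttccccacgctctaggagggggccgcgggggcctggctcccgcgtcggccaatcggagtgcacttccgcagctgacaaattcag
Egr2: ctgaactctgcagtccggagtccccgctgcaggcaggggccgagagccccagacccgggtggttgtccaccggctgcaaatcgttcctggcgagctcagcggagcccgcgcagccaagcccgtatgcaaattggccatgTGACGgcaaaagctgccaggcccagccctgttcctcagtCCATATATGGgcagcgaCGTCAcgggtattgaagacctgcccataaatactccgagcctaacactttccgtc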

How the data were processed

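UMI counts per gene and barcode were used as deposited. The submitters' processing notes name Cell Ranger, Seurat 3 and mm10, and the deposited matrix headers give software version 6.1.2. The members and gene lists were chosen with earlier results of these data known. Cells were kept with 200 to 6000 genes and at most 10% mitochondrial UMIs, gated by detected markers, and UMIs were summed per gate and library and divided by the total (CPM). Levels carry exact Poisson, ratios exact conditional and shares Clopper-Pearson 95% intervals. Ratios needed at least 50 cells on both sides. Genes with at least 20 CPM on either side were tested against a fold of 1.5. The code was tested on simulated data.

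Named besides the members were the deleted genes, the gating markers, the genes with the largest absolute log2 ratio (at most 4) of each list in a comparison (other immediate-early, heat shock, ERK feedback, SRF and CREB pathway, other AP-1 family), the 5 genes most like the members' sum, and S100a8 and S100a9. The 7 alternatives were a filter of 1000 to 6000 genes and at most 5% mitochondrial UMIs, TMM factors from edgeR 4.0.16, the mean of per-cell CPM, stricter gates, removal of the deepest 5% of cells, thinning to 2000 UMIs, and a minimum of 10 UMIs in place of 20 CPM. Prehypertrophic cells with at least 3 Ihh UMIs, erythroid cells without Col2a1, erythroid levels scaled by UMIs outside the erythroid markers, and S100a8 and S100a9 were added after seeing the data. Python 3.11.15, numpy 2.4.6, scipy 1.17.1, pandas 2.3.3, matplotlib 3.10.9 and R 4.3.3 were used.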

Additional observations from a re-analysis of the deposited data

How the results depend on the processing

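The values below are members' median log2 ratios, with the value of the report in brackets. A median stayed if it lay within the median of the members' 95% interval ends, a summed level if it lay within its own 95% interval, and a count if it changed by at most 1.5-fold. A median or count that is not printed below stayed in this sense. No value past the fold in 1 direction was past it in the other direction under any setting. Under the filter of 1000 to 6000 genes and at most 5% mitochondrial UMIs all 16 medians stayed, 31 of 32 counts were equal and 1 went from 3 to 4 (members higher in Gdf5-positive cells than in chondrocytes in G1KO), and 32 of 40 summed levels stayed. The 8 levels that moved were the erythroid gate of 3 libraries, the mesenchymal cells of no other gate in all 4, and the macrophage gate of DCKO. No paired analysis was possible because each condition had 1 library. Depth limits Egr2 most, and the osteogenic, tendon, endothelial, erythroid, prehypertrophic, muscle and macrophage gates hold few cells. The osteogenic gate, which led for some members, held 155, 36, 65 and 50 cells.

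With TMM factors the age median was 0.78 in chondrocytes (0.67) and 1.26 in prehypertrophic cells (1.08). For G1KO against control it was 0.17 in Gdf5-positive cells (0.06) and 0.0505 in chondrocytes (-0.06). For DCKO against control it was 0.0245 in Gdf5-positive cells (-0.09), 0.10 in chondrocytes (-0.05) and -0.83 in prehypertrophic cells (-1.02). For DCKO against G1KO it was -0.0056 in chondrocytes (-0.05) and 0.0417 in prehypertrophic cells (-0.11). Gdf5-positive cells over chondrocytes gave 0.69, 0.32, 0.33 and 0.13 (0.78, 0.49, 0.49 and 0.34), and the members higher there were 1 in G1KO (3) and 1 in DCKO (2). The median kept its sign in 12 of 16 comparisons. TMM shifts all genes of a comparison by 1 factor, which by construction moves each ratio alike.

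With stricter gates the age median was 0.52 in chondrocytes and 0.9991 in prehypertrophic cells. In Gdf5-positive cells it was -0.21 for DCKO against control and -0.23 for DCKO against G1KO (-0.14), with 1 member lower for G1KO (0), 1 higher for DCKO (0) and 0 higher for DCKO against G1KO (1). For DCKO against G1KO in chondrocytes it was -0.0247. Gdf5-positive cells over chondrocytes gave 0.89, 0.60, 0.58 and 0.49, with 5 members higher in DCKO (2). These gates held 1302, 494, 499 and 141 Gdf5-positive cells and 524, 3964, 3652 and 4357 chondrocytes. The cause was not tested.

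With the mean of per-cell CPM the median was 0.73 for age, -0.0219 for G1KO, 0.0066 for DCKO and -0.11 for DCKO against G1KO, all in chondrocytes, and for Gdf5-positive cells over chondrocytes 0.84, 0.54 and 0.46 in the first 3 libraries. Thinned to 2000 UMIs, the same 7 medians were 0.74, -0.0053, 0.0244, -0.0929, 0.83, 0.53 and 0.46, and 1 member was lower for G1KO in Gdf5-positive cells. Each of these settings turned the sign of the DCKO median in chondrocytes alone. Without the deepest 5% of cells it was 0.71 for age, -0.0201 for DCKO and -0.0776 for DCKO against G1KO in chondrocytes, and -0.68 for G1KO (-0.80) and -0.31 for DCKO against G1KO in prehypertrophic cells. The cause was not tested.

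With at least 10 UMIs in place of 20 CPM, which adds Egr2 to the members counted, the median was 0.72 for age and -0.0111 for DCKO against G1KO in chondrocytes, -0.61 for G1KO in prehypertrophic cells, and 0.36 and 0.39 for Gdf5-positive cells over chondrocytes in the E14.5 control and G1KO. With at least 3 Ihh UMIs, chosen after seeing the data, prehypertrophic medians were 1.15 for age and -0.28 for DCKO against G1KO.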

Other observations

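The spread between cells was wide in each gate. In Gdf5-positive cells with at least 2000 UMIs, the share of a cell's UMIs in the 10 members had a 10th percentile of 0.238, 0.228, 0.296 and 0.246%, a median of 0.502, 0.619, 0.665 and 0.599% and a 90th percentile of 1.16, 1.27, 1.20 and 1.06%. In chondrocytes the medians were 0.281, 0.445, 0.487 and 0.474% and the 90th percentiles 0.692, 0.935, 0.953 and 0.887%, and in prehypertrophic cells the medians were 0.260, 0.498, 0.316 and 0.300%. The prehypertrophic median of the E14.5 control was the highest of the 4 there, as was its summed level.

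The splits that follow were chosen after seeing the data, and all values are the CPM of all 10 members summed. With each gate split by depth into 4 equal groups, the shallowest Gdf5-positive cells had 7506, 7743, 6868 and 6287 CPM and the deepest 5524, 6514, 6966 and 6253 CPM. Chondrocytes, in the same order, had 3863, 5494, 5990.4 and 5233 CPM and 3650.4, 4968, 4790.2 and 4926 CPM, and prehypertrophic cells 3586, 6756, 4937 and 4234 CPM and 2969, 6094, 3026 and 3285 CPM. The deepest cells were the lower ones in every library and gate except the Gdf5-positive cells of the library labelled G1KO. By mitochondrial share, Gdf5-positive cells at or under the median had 6633, 7223, 7044 and 6147 CPM and those over it 5237, 6521, 7221 and 6707 CPM. Chondrocytes had 3901, 5309.8, 4739 and 4895 CPM and 3039, 4933, 5808 and 5407 CPM. Cells with more mitochondrial UMIs were lower in both controls and higher in both mutant libraries. Cells with a Mki67 or Top2a UMI, both genes of dividing cells, had 5915, 6625, 7162 and 6755 CPM in the Gdf5-positive gate, and cells with neither 6034, 7193, 7070.3 and 5911 CPM. In chondrocytes the values were 3811, 5281, 5342 and 5449.9 CPM and 3271, 5027, 5122 and 4924 CPM.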
